A study of Mus musculus with 2 samples.

Results

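The 32 genes described here encode the machinery that carries proteins into mitochondria and folds them there. They were taken from the 31053 genes of the deposited tables as every symbol beginning with Tomm or Timm and a digit, together with Hspd1, Hspe1, Hspa9, Phb, Phb2 and Tfam. The rule used names and no measured values, but it was set with earlier results of these data known. Expression was read in 2 single-cell RNA libraries, made with the 10x Chromium 5′ kit, of γδ T cells carrying CD24, a surface protein of immature thymocytes. The cells came from thymic lobes of wild-type C57BL/6 mice taken at embryonic day 15, kept untreated in culture for 2 days and sorted by TMRE, a dye drawn into mitochondria by their membrane potential, into bright (TMREhi) and dim (TMRElo) cells. There was 1 library for each of these sorts, so no comparison has a replicate, and all intervals below are at 95% and cover counting error only, not the spread between animals, sorts or cells.

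Most mitochondrial proteins are made in the cytosol and enter the organelle unfolded. The TOM complex in the outer membrane receives them, the TIM23 complex threads those with a presequence into or across the inner membrane, drawing on the membrane potential, and the TIM22 complex inserts carrier proteins, which small TIM chaperones escort between the membranes. In the matrix, the Hsp70 protein encoded by Hspa9 pulls the chain in, and the Hsp60 and Hsp10 proteins encoded by Hspd1 and Hspe1 form the chamber in which it folds. Prohibitins form ring scaffolds in the inner membrane, and Tfam packages mitochondrial DNA and starts its transcription.

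Cells were retained when they had 500 or more genes detected and no more than 10% of transcript tags (UMIs) from mitochondrial genes, and they numbered 317 in TMREhi and 34 in TMRElo. They held 2905666 and 105080 UMIs, 5 cells held 44.0% of those in TMRElo, and no barcode sequence occurred in both libraries. Of all barcodes reaching 500 genes, those in which ribosomal protein genes made up under 15% of UMIs are called low-ribosomal (733 TMREhi, 117 TMRElo) and the others high-ribosomal (292 and 16). All 13 γδ T cell markers listed were measured in both classes, and erythroid markers had 0 UMIs in retained cells. Retained TMREhi cells held 320 UMIs of 5 myeloid markers, against 0 in TMRElo, and 3 TMREhi barcodes with at least 5 such UMIs each are left out in alternatives given below, chosen after seeing the data. Markers of NK cells and innate lymphoid cells stood at 45.8 CPM in TMREhi and 266 CPM in TMRElo retained cells, a ratio of 0.172 (0.114–0.268), with both measured genes lower. Their part in the results was not tested. Markers of αβ thymocytes stood at 302 CPM (a counts-per-million value, UMIs scaled to the group's total) in retained TMREhi and 200 CPM in retained TMRElo cells, where Rag1, Rag2, Ptcra and Cd4 had 0 UMIs. In 1 library, 3 UMIs made 1.03 CPM in TMREhi and 28.5 CPM in TMRElo, so the TMRElo counts limit every comparison between the libraries.

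Import and chaperone transcripts were more abundant in TMREhi than in TMRElo retained cells. Together the 32 genes had 12101 UMIs, or 4165 CPM, in TMREhi and 326 UMIs, or 3102 CPM, in TMRElo, a ratio of 1.34 (1.20–1.503). A gene is called higher or lower here when its ratio is at least 1.5-fold and its interval leaves out 1, provided that its mean over both groups reaches 20 CPM. Of the 32 genes 26 reached that mean, and 5 of them were higher in TMREhi and 1 lower, where 6.07% of all 5980 genes measured were higher and 19.3% lower. The median log2 ratio (after adding 1 CPM) was 0.35 over the 26 genes and -0.34 over all genes measured, and 22 of the 26 had a ratio above 1, as had 37.7% of all genes. Both medians fell with coding length. Over all genes they were 0.33 under 500 coding bases (747 of 5907), 0.04 from 500 to under 1000, and -0.65 from 1000. Over the 26 genes they were 0.63 (12 genes), 0.26 (8) and 0.19 (6). The part of coding length in the gap was not tested. The median over all genes depended on the minimum level. With no minimum it was 0.24 over 13336 genes, beside 0.33 over 29 of the genes described here. At a mean of at least 50 CPM it was -0.20 over 3081 genes, beside 0.33 over 23. Phases were called only in cells with at least 2000 UMIs, and 3 alternatives chosen after seeing the data rest on those cells. In all of them (266 and 15) the ratio of the sums was 1.22 (1.09–1.38), with Timm13 and Tomm70a higher and Tomm6 lower (4.32% and 10.1% of all genes). In cells called G1 (103 and 10) it was 1.08 (0.899–1.30), and in cells called S or G2M (163 and 5) it was 1.19 (1.02–1.40). Each library was scored on its own, so cells of the same called phase are not matched between the libraries. In G1 cells, a list of S-phase genes stood at 1034 CPM in TMREhi and 1598 CPM in TMRElo, and one of G2M genes at 1606 and 1373 CPM. The limit on depth left out 19 of the 34 TMRElo cells. The ratios in G1 cells and in S or G2M cells lay below the main interval of 1.20–1.503, and the G1 interval held 1. All 3 intervals overlap the main one, but the 3 sets are parts of the same retained cells, so the overlap shows no agreement. The part of depth or phase in the lower ratios was not tested. Transcripts of a list of G2M genes, which mark cells preparing to divide, stood at 10506 CPM in TMREhi and 5624 CPM in TMRElo retained cells, and their part in the difference was not tested.

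**Figure D1:**
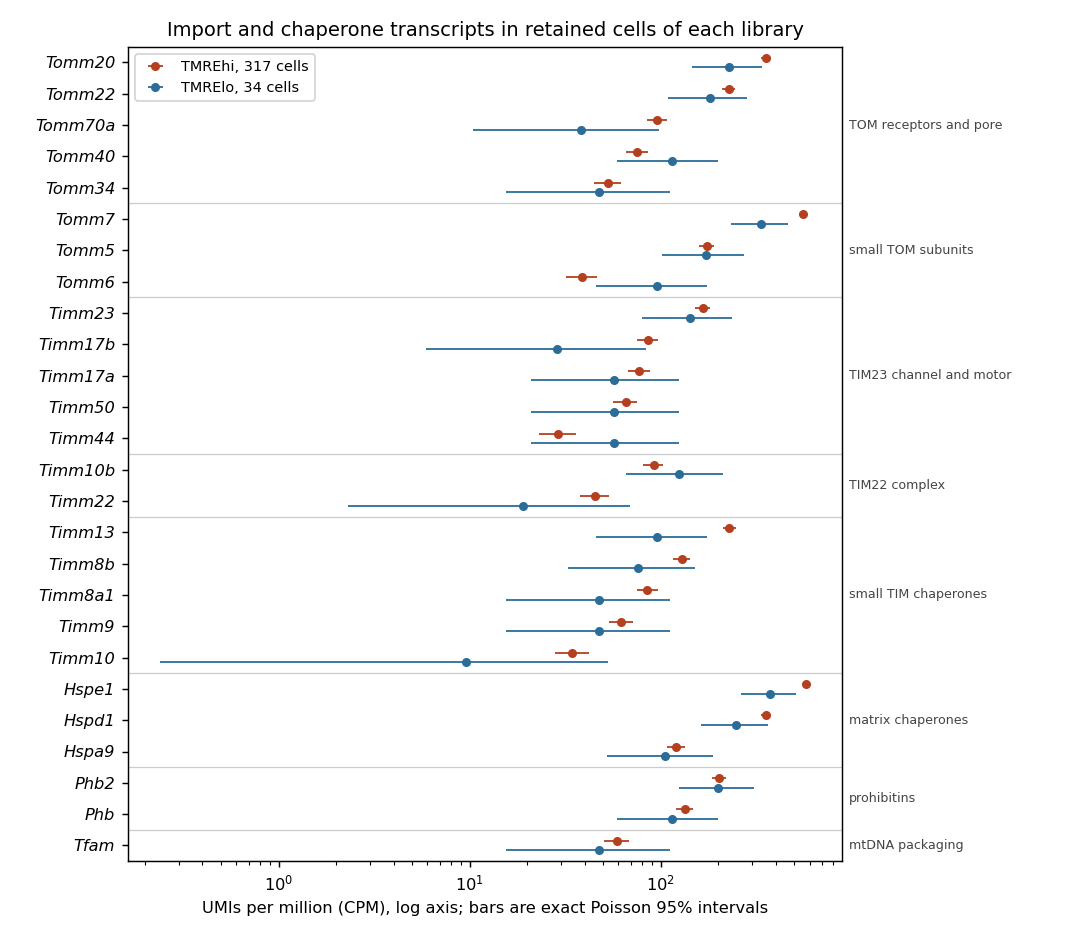
Level of each of the 26 measured genes in retained cells, in CPM on a log axis, for TMREhi (317 cells) and TMRElo (34 cells), with exact Poisson 95% intervals, grouped by role. TMREhi points lie to the right of TMRElo points for 22 genes, and the TMRElo intervals are wide.

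The receptors and pore of the outer membrane were led by Tomm20, a receptor for presequences, with 1033 UMIs (356 CPM) in TMREhi and 24 UMIs (228 CPM) in TMRElo, a ratio of 1.56 (1.04–2.44). Tomm22, the central receptor, stood at 227 CPM (659 UMIs) and 181 CPM (19 UMIs). Tomm70a, a receptor for carrier proteins that come with cytosolic chaperones, had 279 UMIs (96.0 CPM) and 4 UMIs (38.1 CPM). Tomm40, the channel itself, went the other way with 218 UMIs (75.0 CPM) and 12 UMIs (114 CPM). Tomm34, a cytosolic co-chaperone, stood at 53.0 CPM (154 UMIs) and 47.6 CPM (5 UMIs). Of these 5 genes only Tomm20 was called in retained cells, and the group as a whole had a ratio of 1.30 (1.02–1.69).

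The small subunits that stabilise the TOM complex moved apart from one another. Tomm7 had 1603 UMIs (552 CPM) in TMREhi and 35 (333 CPM) in TMRElo, a ratio of 1.66 (1.19–2.39). Tomm5 was nearly level at 173 CPM (504 UMIs) and 171 CPM (18 UMIs). Tomm6 was the only gene of the 32 called lower in TMREhi, with 112 UMIs (38.5 CPM) against 10 UMIs (95.2 CPM), a ratio of 0.405 (0.212–0.868). That call rests on 10 TMRElo UMIs in 8 cells, and the interval held 1 without the 5 deepest cells of each library (0.375, 0.167–1.05), over all deposited barcodes (0.589, 0.333–1.14) and in barcodes with a γ V segment UMI (0.466, 0.228–1.11). Tomm6os, a noncoding gene on the opposite strand that overlaps Tomm6 by 777 bases, had 0 UMIs in retained cells, and whether strand was used in counting is not given in the sources used here.

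In the inner membrane, Timm17b, 1 of 2 alternative subunits of the TIM23 channel, had 248 UMIs (85.4 CPM) in TMREhi and 3 (28.5 CPM) in TMRElo, a ratio of 2.99 (1.01–14.6). The other, Timm17a, stood at 77.1 CPM (224 UMIs) and 57.1 CPM (6 UMIs), and the channel core Timm23 at 166 CPM (483 UMIs) and 143 CPM (15 UMIs). Timm50, the receptor of the channel, had 65.4 CPM (190 UMIs) and 57.1 CPM (6 UMIs). Timm44, which tethers the import motor, was below 1 in its ratio with 28.9 CPM (84 UMIs) and 57.1 CPM (6 UMIs). The TIM22 insertion channel Timm22 had 131 UMIs (45.1 CPM) and 2 UMIs (19.0 CPM), and Timm10b, a small subunit bound to it, 91.5 CPM (266 UMIs) and 123.7 CPM (13 UMIs). The TIM23 group had a ratio of 1.28 (0.924–1.83) and the TIM22 group of 0.934 (0.577–1.62), so neither differed beyond counting error.

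Small TIM chaperones had the largest ratio of the 8 role groups, 1.95 (1.35–2.92). Timm13, which escorts proteins with Timm8 partners, had 663 UMIs (228 CPM) in TMREhi and 10 (95.2 CPM) in TMRElo, a ratio of 2.40 (1.30–5.02). Its partners Timm8b (373 and 8 UMIs, 128 and 76.1 CPM) and Timm8a1 (247 and 5 UMIs, 85.0 and 47.6 CPM) had ratios of 1.69 and 1.79 with intervals that held 1. Timm9 had 180 and 5 UMIs (61.9 and 47.6 CPM), and its partner Timm10 had 100 and 1 UMIs (34.4 and 9.52 CPM). All 5 measured genes of this group had ratios above 1, and 1 of them was called.

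Matrix chaperones stood at 1048 CPM in TMREhi and 723 CPM in TMRElo together, a ratio of 1.45 (1.15–1.84). Hspe1 had 1663 UMIs (572 CPM) against 39 (371 CPM), a ratio of 1.54 (1.12–2.18). Hspd1 had 1034 UMIs (356 CPM) against 26 (247 CPM), a ratio of 1.44 (0.976–2.21), and 30.8% of its TMRElo UMIs lay in 1 cell. Hspa9 stood at 120.1 CPM (349 UMIs) and 104.7 CPM (11 UMIs). The prohibitins were close to level, Phb2 at 202 CPM (587 UMIs) and 199.8 CPM (21 UMIs) and Phb at 134 CPM (388 UMIs) and 114 CPM (12 UMIs), as was Tfam at 58.9 CPM (171 UMIs) and 47.6 CPM (5 UMIs). Most of the calls between the libraries depended on which cells were kept. Among cells with at least 1000 genes and at most 5% mitochondrial UMIs (223 and 9), Hspe1 stood at 1.42 (0.967–2.19), Tomm7 at 1.25 (0.863–1.89), Tomm20 at 1.32 (0.818–2.27) and Timm17b at 2.78 (0.760–23.1), none of them called. Timm13 kept its call there at 2.45 (1.12–6.71), and Hspd1 was called at 2.72 (1.37–6.32). Without the 5 deepest cells of each library Hspd1 stood at 0.979 (0.630–1.61). In barcodes with a γ V segment UMI (267 and 29), Tomm20 at 1.47 (0.971–2.32) and Timm17b at 2.71 (0.916–13.2) were not called. In G1 cells Timm13 was higher at 3.06 (1.02–15.0) on 3 TMRElo UMIs, with Tomm40 (0.262) and Tomm6 (0.185) lower, and in S and G2M cells Timm13 stood at 1.65 (0.753–4.52) and was not called.

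Below the level set for naming a ratio were Timm21 (81 and 1 UMIs), Timm29 (42 and 2 UMIs) and Tomm40l (35 and 2 UMIs), while Timm8a2, Tomm20l and Tomm6os had 0 UMIs in both sets of retained cells.

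Other mitochondrial gene lists did not share one direction. Of 20 measured genes among 23 other import and processing genes, the count was 2 higher in TMREhi and 1 lower, and their median log2 ratio stood at 0.12. Romo1, a small inner membrane protein, stood at 279 and 171 CPM, and Dnajc15, a co-chaperone of the import motor, at 134 and 238 CPM. Of 9 mitochondrial proteases and co-chaperones, 0 were called in either direction at a median of -0.44. Transcripts encoded in mitochondrial DNA stood at 36534 CPM in TMREhi and 50352 CPM in TMRElo, a ratio of 0.726, although the limit on mitochondrial UMIs bears on that list directly. The ribosomal classes carry no such limit. In low-ribosomal barcodes the direction was the other, at 177025 and 146991 CPM, a ratio of 1.20 (1.19–1.22). In high-ribosomal barcodes the list stood at 37918 and 43495 CPM. Cytosolic chaperones had a ratio of 1.72 (1.58–1.88) with 6 of 16 measured genes higher and 0 lower, among them Hsp90ab1, an abundant Hsp90, at 3283 and 1447 CPM.

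Within each ribosomal class the ratio of the sums lay above 1, but the role groups did not all share that direction. Small TOM subunits, TIM23, small TIM chaperones and matrix chaperones lay above 1 in both classes. TIM22 (1.57 low-ribosomal, 0.797 high-ribosomal), prohibitins (1.33 and 0.882), receptors and pore (0.998 and 1.28) and Tfam (1.05 and 0.993) did not. The intervals of these last groups held 1 in both classes. In low-ribosomal barcodes the 32 genes summed to 2347 CPM in TMREhi and 1845 CPM in TMRElo, a ratio of 1.27 (1.12–1.45). Other lists moved further there: αβ thymocyte markers had a ratio of 3.75 (2.76–5.22), with 5 of 6 genes higher, G2M genes of 3.70 (3.36–4.09), S genes of 2.28 (2.04–2.56), and NK and innate lymphoid markers of 0.315 (0.243–0.413). Their part in the difference was not tested. Of 25 measured genes 3 were higher and 0 lower (9.28% and 12.1% of all genes measured), namely Hspe1 at 2.67 (1.27–6.74), Tomm7 at 2.51 (1.19–6.34) and Timm13 at 2.96 (1.12–11.03), on 7, 7 and 4 TMRElo UMIs. In low-ribosomal barcodes with a γ V segment UMI, Tomm7 at 2.19 (0.973–6.12) and Timm13 at 1.91 (0.707–7.24) were not called. In high-ribosomal barcodes the sums were 4179 and 3437 CPM, a ratio of 1.22 (1.08–1.37), with 3 of 27 genes higher and 1 lower (4.28% and 10% of all genes), and there G2M genes had a ratio of 1.62 (1.49–1.77) and NK and innate lymphoid markers of 0.176 (0.111–0.290). These were Timm13 at 2.16 (1.13–4.74), Timm17b at 3.67 (1.004–30.4) on 2 TMRElo UMIs, Tomm70a at 8.17 (1.45–324) on 1 TMRElo UMI, and Tomm6 at 0.326 (0.171–0.699). Timm17b was not called with a class limit of 20% (3.01) or in barcodes with a γ V segment UMI (3.32). Timm13 was called higher in retained cells and in both classes. The high-ribosomal class holds most of the retained UMIs, so its values are not a second measurement.

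**Figure D2:**
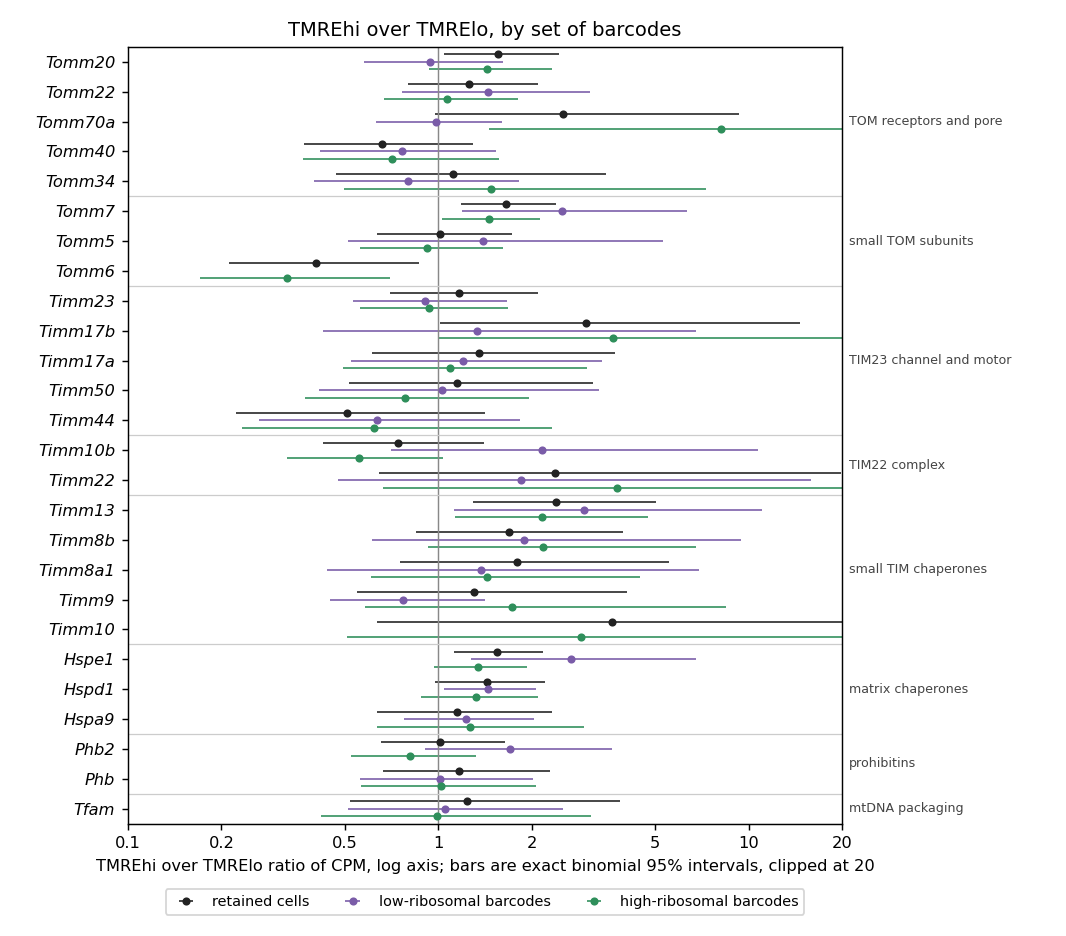
Ratio of TMREhi over TMRElo CPM on a log axis for the genes measured in retained cells (black), low-ribosomal barcodes (purple) and high-ribosomal barcodes (green), with exact binomial 95% intervals. Timm13 lies to the right of 1 with its intervals in all 3 sets, and Tomm6 to the left in the 2 sets where it reached the minimum level.

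The wider contrast lay between the ribosomal classes of TMREhi. Since the classes were cut on ribosomal UMIs, and mitochondrially encoded UMIs differ between them too, levels here are CPM scaled to all other UMIs, called rescaled CPM. The 32 genes stood at 3090 rescaled CPM in the 733 low-ribosomal and 6458 rescaled CPM in the 292 high-ribosomal barcodes, a ratio of 0.478 (0.460–0.498). Of 28 measured genes 18 were lower in low-ribosomal barcodes and 0 higher, where 21.3% of all 7612 genes measured were lower and 49.5% higher. The median log2 ratio was -0.93 for these genes and 0.60 for all. With CPM scaled to all UMIs, which moves the median of all genes to 0.80, the ratio was 0.562, with 16 genes lower and 2 (Tomm70a at 1.65 and Hspa9 at 1.51) higher, where 18.4% of all genes were lower and 55.9% higher.

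The genes did not differ by the same amount. Small TOM subunits stood at 247 rescaled CPM in low-ribosomal and 1181 in high-ribosomal barcodes, a ratio of 0.209 (0.182–0.238). Tomm7 stood at 172 (171 UMIs) and 852 rescaled CPM (1612 UMIs), Tomm5 at 54.2 and 269, and Tomm6 at 21.1 and 59.7. Of the matrix chaperones, Hspe1 stood at 183 rescaled CPM (182 UMIs) in low-ribosomal and 887 (1678 UMIs) in high-ribosomal barcodes, a ratio of 0.206 (0.176–0.240). Its partner Hspd1 stood at 537 (535 UMIs) and 558 rescaled CPM (1056 UMIs), a ratio of 0.961 (0.865–1.07). The mRNAs of these partners, which build one folding chamber, were thus at unlike ratios in the same barcodes. Hspa9 at 1.29 (1.09–1.52), Tomm70a at 1.41 (1.17–1.69), Timm9 at 1.19 (0.929–1.51), Timm29 at 1.04 and Tfam at 0.905 were also near or above 1, whereas Tomm20 stood at 0.298 (0.251–0.352), Timm8b at 0.277 and Timm13 at 0.324.

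The order followed the length of the coding sequence, in these genes as in the others. The 12 genes with a longest coding sequence under 500 bases had a median log2 ratio of -1.71, the 10 genes from 500 to under 1000 bases of -0.78, and the 6 genes of 1000 bases or more of -0.17. Over all 7517 measured genes with a coding length the corresponding medians were -1.39, -0.35 and 1.04. Spearman's rho between coding length and log2 ratio was 0.71 across the 28 genes and 0.69 across all, a description across genes that share the same libraries and are not independent. Tomm7 with 165 coding bases and Hspe1 with 306 lay at one end, Tomm70a with 1833 and Hspa9 with 2037 at the other. Timm9, with 267 coding bases and a log2 ratio of 0.25, was the exception among the short genes. Depth differed between the classes, with a median of 1555 UMIs in low-ribosomal and 8357 in high-ribosomal barcodes, and the median share of mitochondrial UMIs was 16.9% and 3.55%. Markers of αβ thymocytes were 4.06 times (3.71–4.44) as abundant in the low-ribosomal class, with all 7 genes higher, and NK and innate lymphoid markers 3.34 times (2.69–4.16). The part of depth, mitochondrial share and these transcripts in the differences was not tested. Among barcodes with a γ V segment UMI the ratio of the sums was 0.486, and 18 genes were lower (20.5% of all genes).

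**Figure D3:**
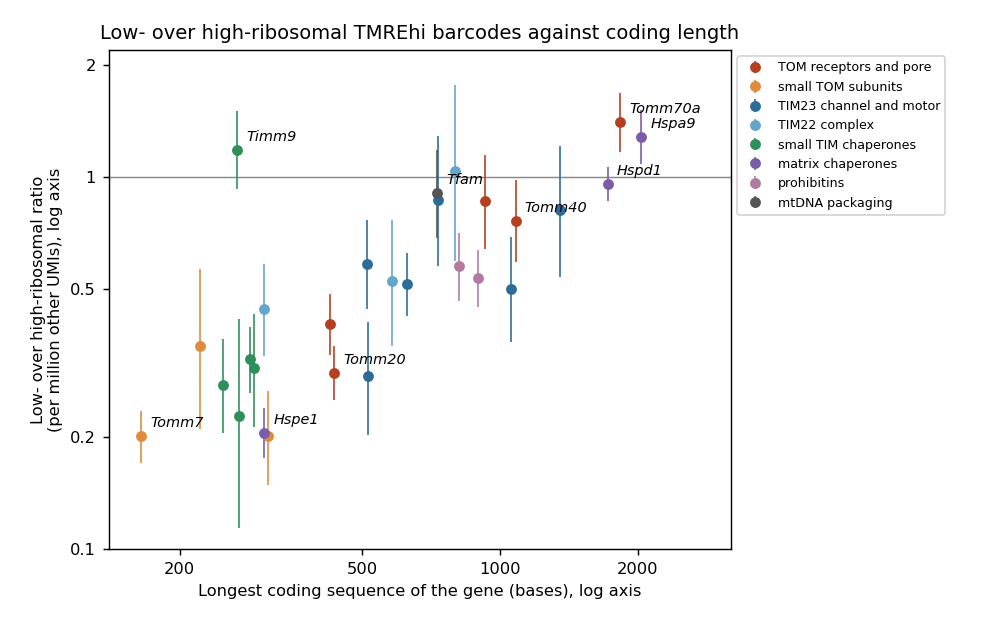
Ratio of low- over high-ribosomal TMREhi levels (CPM scaled to UMIs outside ribosomal protein and mitochondrial genes, log axis) against the longest coding sequence of each of the 28 measured genes (bases, log axis), coloured by role, with exact binomial 95% intervals. Short genes such as Tomm7 and Hspe1 lie near 0.2, long genes such as Hspd1, Hspa9 and Tomm70a lie near or above 1, and Timm9 stands apart.

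In the same contrast, where 21.3% of all genes were lower and 49.5% higher, the other mitochondrial lists were counted too. Of 21 measured other import and processing genes, 9 were lower in the low-ribosomal class and 1 higher. Of 11 proteases and co-chaperones, 6 were higher and 0 lower, a share higher close to that of all genes, including Yme1l1, an inner membrane protease, at 236 and 99.9 rescaled CPM. All 13 transcripts of mitochondrial DNA were higher, 3.98 times (3.95–4.01) as abundant in sum. Of 17 cytosolic chaperones 10 were lower and 0 higher.

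Cycling TMREhi cells held more import and chaperone transcripts than resting ones, led by Hspd1. Phases were called on cells thinned to 2000 UMIs, giving 103 cells in G1, here called resting, and 163 cycling cells, of which 79 were in S and 84 in G2M. The 32 genes summed to 3360 CPM (2056 UMIs) in resting and 4433 CPM (9945 UMIs) in cycling cells, a ratio of 1.32 (1.26–1.38). Of 27 measured genes 6 were higher in cycling cells and 0 lower, where 17.3% of all 5338 genes measured were higher and 15.5% lower, so the count of 6 is close to the background share. The median log2 ratio was 0.34 for these genes and 0.01 for all. Scaling without ribosomal and mitochondrial UMIs, which moves the median of all genes to -0.11, left 3 of the genes higher (13.1% of all genes), Hspd1, Timm8a1 and Tomm40, and a ratio of 1.24.

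Hspd1 stood at 126 CPM (77 UMIs) in G1, 471 CPM (425 UMIs) in S and 387 CPM (519 UMIs) in G2M cells, so that the intervals of S and G2M lay wholly above that of G1. Cycling over resting, its ratio was 3.34 (2.65–4.28), with at most 6.49% of the UMIs of either group in 1 cell. Timm8a1 stood at 31.0 CPM (19 UMIs), 131 CPM (118 UMIs) and 81.2 CPM (109 UMIs) in the same order, a ratio of 3.26 (2.04–5.51). Tomm40 stood at 39.2 CPM (24 UMIs), 79.9 CPM (72 UMIs) and 87.95 CPM (118 UMIs), a ratio of 2.16 (1.41–3.45), but was not called with cells thinned to 1000 UMIs for the phase calls, at 1.44 (1.02–2.07). In S over G1, 6 of 27 genes were higher and 0 lower (16.4% and 13.7% of all genes), namely these 3, Hspe1 at 1.57 (1.35–1.82), Hspa9 at 1.58 (1.13–2.22) and Tfam at 1.71 (1.08–2.78). In G2M over G1, 4 of 27 were higher and 0 lower (17.9% and 15.5% of all genes), the same 3 and Tomm70a at 1.62 (1.14–2.34). Timm22 at 1.68 (1.02–2.94), Hspa9 at 1.51 (1.13–2.07) and Tomm70a at 1.5 (1.08–2.14) were nearer to the limit of a call.

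Hspe1, the partner of Hspd1, stood at 425 CPM (260 UMIs) in G1, 665 CPM (600 UMIs) in S and 596 CPM (799 UMIs) in G2M, a ratio for all cycling cells of 1.47 (1.28–1.68), just under the 1.5-fold limit that it passed in S cells. The interval lay below that of Hspd1. Matrix chaperones together had a ratio of 1.84 (1.66–2.06), small TIM chaperones of 1.31 (1.15–1.499), receptors and pore of 1.22 (1.10–1.36) and small TOM subunits of 1.20 (1.08–1.34), while TIM23 at 1.11 (0.964–1.27), TIM22 at 1.03 (0.816–1.31) and prohibitins at 1.14 (0.97–1.34) did not differ beyond counting error. Timm13, called between the libraries in retained cells and in both ribosomal classes, stood at 229 and 231 CPM in resting and cycling cells, and Timm10b at 106.2 and 89.2 CPM.

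**Figure D4:**
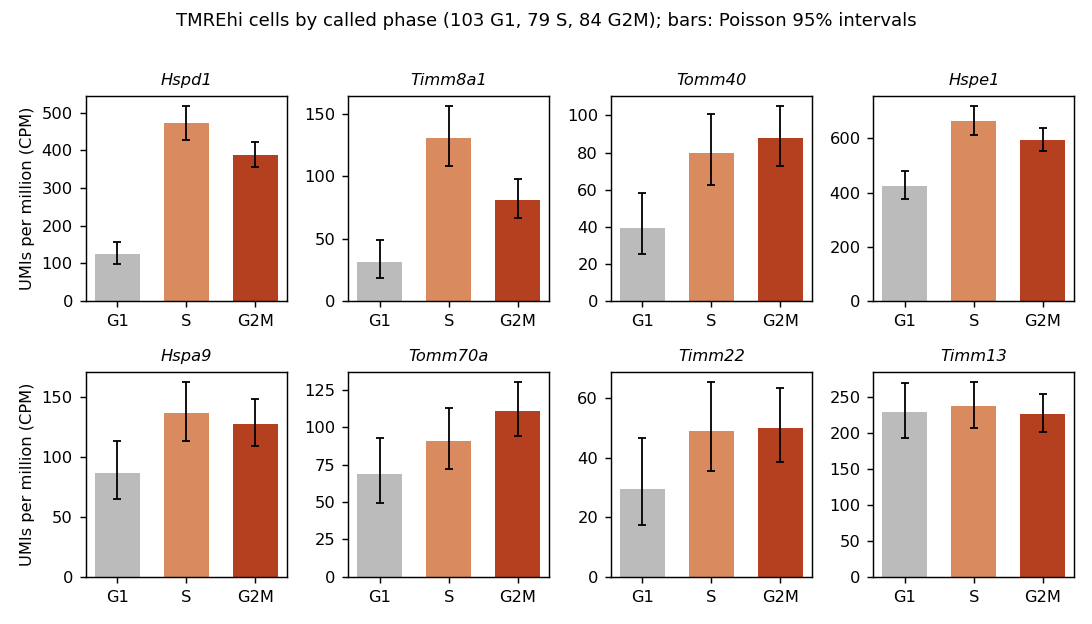
CPM of 8 genes in TMREhi cells called G1 (103), S (79) and G2M (84), with exact Poisson 95% intervals. Hspd1 and Timm8a1 rise above their G1 level by the widest margin, and Timm13 is level.

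The cells differed in depth, with a median of 5553 UMIs in resting and 13898 in cycling cells, and counts per cell are also given at equal depth. Thinning leaves the expected share of a gene in a cell unchanged, so the part of depth was not tested. Thinned to 2000 UMIs each, a G1 cell held a median of 7 UMIs of the 32 genes (0 to 13), an S cell 9 (1 to 20) and a G2M cell 8 (1 to 17), and the ranges overlapped widely. Hspd1 averaged 0.262 UMIs per resting and 0.755 per cycling thinned cell. Of the cells called, 25 had a leading phase score within 0.05 of 0. The 3 barcodes with myeloid UMIs were all in the resting group, which held 311 of these UMIs against 5 in cycling cells. Without them Hspd1 stood at 3.32 (2.62–4.25) and the sum at 1.31, and 4 genes were called (17.3% of all genes higher), with Timm22 at 1.62 (0.982–2.84) and Hspa9 at 1.49 (1.11–2.04) no longer among them. Other lists moved in the same comparison: of 19 cytosolic chaperones 9 were higher and 2 lower, and Shmt2 and Mthfd2, enzymes of mitochondrial folate metabolism, were 2.55 and 2.23 times as abundant in cycling cells. Transcripts of mitochondrial DNA had a ratio of 0.851 with 0 of 13 called, and γδ T cell markers of 0.681.

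Hspd1 and Hspe1 begin head to head, so the sequence before the Hspe1 start, which lies within the Hspd1 gene, is shown with the promoters of Timm8a1 and Tomm40, the genes that stood nearest to Hspd1 in the cycle. On GRCm38, Hspd1 (1:55077835-55088243, minus strand) and Hspe1 (1:55088132-55091307, plus strand) have starts 111 bases apart on opposite strands and overlap by 112 bases, per GENCODE vM21. GENCODE names 6 pseudogenes of Hspe1, 5 of Hspd1 and 1 of Hspa9, and how reads shared with a copy were counted is not given in the sources used here. RefSeq promoter sequences of GRCm38.p6 were found for 28 of the 32 genes, and the 250 bases before each start were searched on both strands. The sequences below run 5′ to 3′ on the strand of the gene, and capitals mark matches of a heat shock, ETS, E-box or CCAAT motif, which describe letters and show no bound factor. Matches of the GC box, 2 in the Hspe1, 3 in the Timm8a1 and 3 in the Tomm40 window, are left in lower case.
Hspe1, chr1:55087898-55088147, plus strand: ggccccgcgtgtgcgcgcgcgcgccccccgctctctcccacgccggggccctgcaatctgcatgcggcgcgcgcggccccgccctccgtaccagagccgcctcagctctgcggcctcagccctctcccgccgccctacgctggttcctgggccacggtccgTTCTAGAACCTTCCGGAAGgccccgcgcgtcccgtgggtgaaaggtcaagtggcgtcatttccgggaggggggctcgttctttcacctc
Timm8a1, chrX:134541671-134541920, minus strand: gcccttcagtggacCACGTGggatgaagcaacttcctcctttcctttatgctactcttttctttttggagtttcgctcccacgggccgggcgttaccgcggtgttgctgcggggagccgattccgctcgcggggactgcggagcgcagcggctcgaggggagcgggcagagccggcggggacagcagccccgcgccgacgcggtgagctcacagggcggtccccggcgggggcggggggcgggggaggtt
Tomm40, chr7:19715430-19715679, minus strand: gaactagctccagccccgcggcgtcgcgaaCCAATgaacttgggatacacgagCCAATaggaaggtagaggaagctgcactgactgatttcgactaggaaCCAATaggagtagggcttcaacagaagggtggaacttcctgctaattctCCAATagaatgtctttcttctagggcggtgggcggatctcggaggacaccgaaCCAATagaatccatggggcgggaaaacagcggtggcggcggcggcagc

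In the Hspe1 window the capitals hold 2 overlapping matches of the heat shock element, the repeat bound by heat shock factors (alternating GAA and TTC units, 3 in all, each 2 bases from the next), fused to 2 matches of the ETS motif CCGGAAG that overlap each other. The window shares 215 bases with 1 of the 2 Hspd1 windows, which reads the same matches on the other strand. Heat shock repeats of this form were found in 3 of 28 genes (10.7%), Hspd1, Hspe1 and Timm9, and in 0.514% of all 27025 genes with a promoter sequence. Hspd1 and Hspe1 enter this count, and that of the ETS motif below, through the same shared stretch. The Timm8a1 window holds an E-box, CACGTG, which was found in 6 of 28 genes (21.4%), Hspd1 among them through its second window, and in 6.86% of all. The Tomm40 window holds 5 CCAAT boxes, a motif present in 8 of 28 genes (28.6%) and in 37.5% of all. The ETS motif was found in 12 of 28 (42.9%) against 7.83%, and the GC box GGGCGG in 14 (50%) against 35.4%. The shares of all genes include genes not measured in these cells. No share among measured genes was taken, so whether these gaps are particular to import genes was not tested. The palindromic motif known for the factor NRF1 was found in 0 of 28 windows against 0.877%, which says only that these letters are not in the windows.

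Of the 32 genes, 6 have a coding gene on the other strand that begins within 1000 bases and points away, and the pairs were not alike. Timm8b and its neighbour Sdhd, a subunit of respiratory complex II, begin 98 bases apart and had ratios of 1.46 and 1.40 for cycling over resting and of 0.277 and 0.357 for low- over high-ribosomal barcodes. Phb2 and Emg1, a ribosome assembly factor, stood at 0.535 and 0.527 in the latter. Timm23 and Parg, an enzyme that removes poly(ADP-ribose), begin 51 bases apart and stood at 0.516 and 3.93. Between the libraries Timm23 had a ratio of 1.16 (0.699–2.10) and Parg of 0.297 (0.148–0.676).

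Barcodes were also grouped by the γ chain V segment with the most UMIs, leaving out ties. In high-ribosomal TMREhi barcodes, those led by Vγ6 (39) had 3303 CPM of the 32 genes and those led by the Vγ1 family (Trgv2, Tcrg-V1 or Tcrg-V3, 198) had 4281 CPM, a ratio of 0.772 (0.713–0.834). The difference lay mainly in the matrix chaperones, at 557 and 1124 CPM, a ratio of 0.496 (0.408–0.598). Of 27 measured genes 4 were lower in Vγ6-led barcodes and 1 higher, where 14.1% of all genes measured were lower and 12.7% higher, so the count of 4 is close to the background share. Hspd1 stood at 145 CPM (30 UMIs) against 383 CPM (879 UMIs), Hspe1 at 344 CPM (71 UMIs) against 613 CPM (1407 UMIs), Hspa9 at 67.8 CPM (14 UMIs) against 128 CPM (294 UMIs) and Timm8b at 67.8 CPM (14 UMIs) against 136 CPM (312 UMIs). Timm10 was the gene higher in Vγ6-led barcodes, at 72.7 CPM (15 UMIs) against 34.8 CPM (80 UMIs), a ratio of 2.08 (1.12–3.65).

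Vγ6-led barcodes also held fewer cycle transcripts, with G2M genes at 3037 CPM against 11142 CPM. Among G1 cells alone, 28 Vγ6-led and 55 Vγ1-led, the ratio of the sums was 0.871 (0.781–0.971), an alternative chosen after seeing the data. Of 27 measured genes 3 were lower and 1 higher in these cells (5.44% and 6.92% of all genes), and the median log2 ratio of the 27 was -0.02. There Hspd1 stood at 0.364 (0.149–0.771), Hspe1 at 0.517 (0.357–0.731) and Timm10 at 3.55 (1.33–9.999), on 8, 40 and 12 Vγ6 UMIs. Hspa9, on 11 Vγ6 UMIs, had an interval that held 1. High-ribosomal barcodes led by Vγ4 (9) and Vγ5 (8) were few. Their sums were 3929 and 3942 CPM, with ratios to the Vγ1 family of 0.918 (0.829–1.01) and 0.921 (0.806–1.05). Matrix chaperones had ratios of 0.733 (0.585–0.909) in Vγ4-led and 0.607 (0.434–0.826) in Vγ5-led barcodes. Of the 27 and 28 measured genes, 1 was lower and 1 higher in Vγ4-led barcodes (3.03% and 3.72% of all genes) and 2 were lower and 0 higher in Vγ5-led ones (3.29% and 4.77%).

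In low-ribosomal TMREhi barcodes the sums were 2468 CPM in the Vγ1 family (206), 2338 CPM in Vγ6 (54), 2128 CPM in Vγ4 (64) and 1603 CPM in Vγ5 (30). The interval of Vγ6 overlapped those of the Vγ1 family and Vγ4, while Vγ5 lay below the Vγ1 family with a ratio of 0.649 (0.502–0.829) and Vγ4 at 0.862 (0.749–0.989). Vγ5-led barcodes also held fewer cycle transcripts than the Vγ1 family, with S genes at 2625 against 5036 CPM and G2M genes at 4715 against 9818 CPM. In Vγ6 these lists stood at 3228 and 6634 CPM, also below the Vγ1 family, and in Vγ4 at 5244 and 9899 CPM. The part of cycle transcripts in the sums was not tested. Hspd1 was again among the genes that differed, at 478 CPM (211 UMIs) in the Vγ1 family, 274 CPM (33 UMIs) in Vγ4 and 163 CPM (7 UMIs) in Vγ5. In Vγ6 it stood at 498 CPM (42 UMIs), level with the Vγ1 family, unlike in the high-ribosomal class. Of 25 measured genes 3 were higher in Vγ6 than in Vγ1 and 1 lower (5.72% and 4.02% of all genes). These were Timm23 at 2.42 (1.30–4.33), Phb at 2.54 (1.27–4.84), Timm9 at 2.62 (1.37–4.82) and, lower, Tomm22 at 0.187 (0.0221–0.708) on 2 UMIs. In Vγ4 0 were higher and 2 of 26 lower (3.23% and 2.12% of all genes), Hspd1 and Tomm7, and in Vγ5 0 were higher and 2 of 25 lower (7.12% and 3.31%), Hspd1 and Hspa9. With at least 2 UMIs in the leading segment, Timm23 in Vγ6 stood at 2.06 (0.927–4.24), Tomm7 in Vγ4 at 0.481 (0.185–1.06) and Hspa9 in Vγ5 at 0.2 on 1 UMI, none of them called.

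Across the libraries the segments could be compared in few groups, since TMRElo held no Vγ6-led barcode and 1 led by Vγ5. Among low-ribosomal barcodes led by the Vγ1 family (206 and 56) the 32 genes had a ratio of TMREhi over TMRElo of 1.37 (1.13–1.66), with 2 of 24 measured genes higher and 0 lower (5.65% and 8.76% of all genes), namely Hspe1 at 5.52 (74 and 2 UMIs) and Phb2 at 3.33 (67 and 3 UMIs). Among those led by Vγ4 (64 and 20) the ratio was 1.15 (0.819–1.66), with 0 of 23 genes higher and 1, Timm44 on 3 and 4 UMIs, lower (1.85% and 4.82% of all genes). Among high-ribosomal barcodes led by the Vγ1 family (198 and 10) the ratio was 1.36 (1.18–1.57). There Hspd1 stood at 383 CPM (879 UMIs) and 146 CPM (9 UMIs), a ratio of 2.62 (1.37–5.75), and Tomm70a had 228 UMIs against 0, where 3 UMIs would make 48.7 CPM. Of 26 measured genes 3 were higher and 0 lower in TMREhi (3.57% and 7.79% of all genes), the other being Timm8b at 4.18 (1.15–34.7) on 2 TMRElo UMIs.

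**Figure D5:**
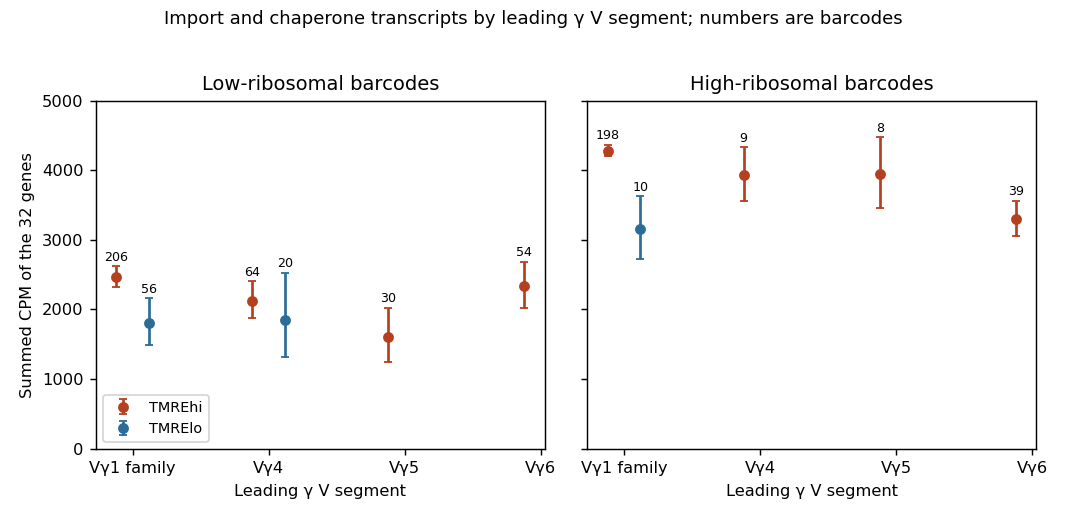
Summed CPM of the 32 genes in barcodes led by the Vγ1 family, Vγ4, Vγ5 or Vγ6, for low-ribosomal (left) and high-ribosomal (right) barcodes of TMREhi and TMRElo, with exact Poisson 95% intervals and the number of barcodes above each point (groups under 5 barcodes left out, Vγ7 not drawn). Within TMREhi these low-ribosomal sums run from 1603 to 2468 CPM and these high-ribosomal sums from 3303 to 4281 CPM.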

How the data were processed

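The authors deposited raw UMI counts by gene and barcode, as 1 matrix for each library. These counts were made with Cell Ranger 3.0.2, per the file headers (3.0 in the submitters' processing notes), on build mm10. How cells were called, whether counting used strand and which annotation was used are matters not given in the sources used here. In all, 1202 TMREhi and 196 TMRElo barcodes were deposited.

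UMIs were summed over the barcodes of a group and given as CPM. Ratios carry exact conditional binomial and levels exact Poisson intervals at 95%. Log2 ratios were taken after adding 1 CPM. With 1 library per group there is no test across samples and no p-value is given. Intervals were checked only on simulated Poisson counts, the model they assume. The simulation held no spread between cells, so the check does not bear on that spread. Phases were scored with scanpy 1.11.5 on retained cells with at least 2000 UMIs (266 TMREhi, 15 TMRElo), each thinned to that depth. The libraries were scored separately. Scrublet marked 6 of 1025 TMREhi and 2 of 133 TMRElo barcodes as doublets, which were kept, with their removal as an alternative. Coding lengths and positions are from GENCODE vM21, in which all 32 genes were found, and promoters from RefSeq. Python 3.11.15, scipy 1.17.1 and matplotlib 3.10.9 were used.

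All 32 genes were counted. Those with a mean of at least 20 CPM in retained cells are named with UMIs and CPM, the others with UMIs only, and other lists as counts with up to 3 of their most abundant genes. The genes, lists and tests were chosen with earlier results of these data known. Cycle genes comprised 42 of S and 52 of G2M phase, and Vγ7-led barcodes, being few, entered no comparison and are given only as values.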

Additional observations from a re-analysis of the deposited data

How the results depend on the processing

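No paired analysis was possible because each sort gave 1 library, and no replicate could be left out. Of 95 sums and counts of calls under an alternative, 76 stayed within the interval or within 1.5 times the count, 19 did not and 0 reversed. Of 1379 values of single genes and medians, 1278 stayed within the interval or kept their call, 100 did not and 1, a median given below, was counted as reversed. Reversal was counted only for called genes, and for sums and medians where the interval of the main sum left out 1. Uncalled genes that crossed 1 were therefore not counted, as with Hspd1 between the libraries without the 5 deepest cells of each. Shares in brackets are of all genes called in the same alternative. The ratio of the summed transcripts kept its direction in every alternative run. The TMREhi over TMRElo ratio in retained cells was 1.55 with 10 genes called (40.8%) over all deposited barcodes. Under alternatives chosen after seeing the data it was 1.22 with 3 called (14.5%) in cells of at least 2000 UMIs, 1.08 with 3 called (7.68%) in G1 cells, where the median log2 ratio turned to -0.0314, and 1.19 with 2 called (10.6%) in S and G2M cells. The low- over high-ribosomal ratio was 0.562 scaled to all UMIs and 0.452 with a class limit of 10%, and, chosen after seeing the data, 0.346 at no more than 10% mitochondrial UMIs and 0.578 in barcodes of at least 2000 UMIs. The cycling over resting ratio was 1.24 with 2 genes called (Hspd1 and Timm8a1, 31.6%) when thinned to 1000 UMIs, and 1.24 with 3 called (31.6%) without ribosomal and mitochondrial UMIs. With at least 2 UMIs in the leading segment, 1 gene was called for low-ribosomal Vγ4 (4.77%), 1 for low-ribosomal Vγ5 (8.3%) and 1 for high-ribosomal Vγ4 barcodes (6.85%). In G1 cells alone, chosen after seeing the data, the high-ribosomal Vγ6 ratio was 0.871. The cause of these shifts was not tested. Depth limits the TMRElo side, where a gene needs about 28.5 CPM to reach 3 UMIs in retained cells.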

Other observations

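The median log2 ratio of cycling over resting cells was 0.33 for the 12 measured genes with a longest coding sequence under 500 bases, 0.16 for 9 from 500 to under 1000 and 0.59 for 6 of 1000 or more, so it had no order with coding length, and over all genes the medians were 0.09, 0.06 and -0.03. TMREhi barcodes without a γ V UMI numbered 308 in the low-ribosomal class and had 2311 CPM of the 32 genes, with αβ thymocyte markers at 2549 CPM. Barcodes led by Vγ7, 5 low- and 3 high-ribosomal in TMREhi, had 3389 and 4181 CPM of the 32 genes, with 38.5% and 62.4% of these UMIs in 1 barcode.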
